A study of Homo sapiens with 18 samples.

Results

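Transcripts of 8 genes used as markers of breast cancer stem cells, CD44, CD24, PROM1, EPCAM, ANPEP, SOX9, ALDH1A3 and ALDH1A1, were measured by RNA sequencing in 18 libraries of MDA-MB-231 spheroids. The members were the rows of the gene table that carry these symbols, and all 8 were found among 21411 genes. MDA-MB-231 is a human triple-negative breast cancer line. It was grown for 7 days in 3D Matrigel, a basement membrane gel, in 6 groups of 3 biological replicates that differ in Jagged1, a ligand of Notch receptors. Jag1WT is the parental line. Jag1KO is a mix of single-cell clones made with Cas9 and a guide to JAG1. Jag1KO + rescue is the knockout carrying a plasmid with JAG1, and Jag1KO + ctrl is the knockout carrying the empty plasmid; both were selected for the plasmid. The siCtrl and siJag1 groups are parental cells transfected before seeding with a nontargeting siRNA or with siRNAs to JAG1. Knockdown is transient, and clonal mixtures and plasmid lines can differ from the parental line in more than JAG1.

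Cancer stem cells are tumor cells with the capacity to seed a new tumor and to give rise to the other cells in it. In breast cancer they are usually isolated by surface proteins, with CD44 high and CD24 low, or by high aldehyde dehydrogenase activity. CD44 binds hyaluronan, CD24 is a small lipid-anchored glycoprotein, PROM1 (CD133) is a membrane protein of cell protrusions, EPCAM is an epithelial adhesion protein and ANPEP (CD13) is a surface aminopeptidase. SOX9 is a transcription factor of progenitor cells. ALDH1A1 and ALDH1A3 oxidize retinaldehyde to retinoic acid. Notch ligands such as Jagged1 act through cleaved Notch and its DNA-binding partner RBPJ, and Notch activity is known for a role in breast stem cell maintenance. The surface phenotype and enzyme activity were not measured here, only mRNA, and fewer cells of a type and less RNA per cell cannot be told apart in bulk cultures.

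The members fell into 3 classes by level. CD44 was abundant, SOX9, ALDH1A3, CD24 and EPCAM were moderate to low, and PROM1, ANPEP and ALDH1A1 were at or near 0 reads in every library. On a per-length scale (CPM per kb of transcript, where CPM is the read count scaled by library size), the medians over the 18 libraries were 60.9 for CD44, 22.5 for SOX9, 6.39 for ALDH1A3, 3.77 for EPCAM and 3.38 for CD24. CD24 and ALDH1A3 varied most over the libraries. CD24 ranged 14.3-fold from its lowest to its highest library and ALDH1A3 ranged 4.44-fold, against 1.74-fold for EPCAM, 1.41-fold for CD44 and 1.34-fold for SOX9. Of the 5 members tested, 0 passed the call rule in each of the 6 comparisons. The rule was edgeR's quasi-likelihood test with a Benjamini-Hochberg adjusted p under 0.05 and a fold above 1.5. It called few genes of any kind: 0.704% of those tested in Jag1WT against Jag1KO, 0.00776% in Jag1KO + rescue against Jag1KO + ctrl and 0.0156% in siCtrl against siJag1. CD24 and ALDH1A3 had an unadjusted edgeR p under 0.05 in Jag1KO + rescue against Jag1KO + ctrl and in Jag1KO + ctrl against Jag1KO. ALDH1A3 alone did in siCtrl against siJag1, and no member did in the other 3 comparisons. Over all tested genes, 3965 of 12894, 756 of 13004 and 491 of 12823 did in the comparisons named, in that order. Other tools and fits called CD24 and ALDH1A3 in some comparisons, as given with each gene.

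The sequences before the start sites of the widest-ranging members, CD24 and ALDH1A3, are given from RefSeq (GRCh38.p14). The CD24 stretch is the 250 bases before the outermost of 3 annotated starts, at chr6:106975628-106975877 on the minus strand. The ALDH1A3 stretch is at chr15:100879581-100879812 on the plus strand, 232 bases that end where an annotated exon begins, and it lies within an intron of 1 longer GENCODE transcript. Capitals mark matches, on either strand, to a GC box (GGGCGG) or a CCAAT box (CCAAT).
CD24: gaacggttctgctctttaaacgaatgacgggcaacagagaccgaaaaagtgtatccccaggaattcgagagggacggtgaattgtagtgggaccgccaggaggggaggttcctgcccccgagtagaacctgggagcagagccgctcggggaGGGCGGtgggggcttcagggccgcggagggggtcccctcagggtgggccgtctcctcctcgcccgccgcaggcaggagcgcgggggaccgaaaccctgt
ALDH1A3: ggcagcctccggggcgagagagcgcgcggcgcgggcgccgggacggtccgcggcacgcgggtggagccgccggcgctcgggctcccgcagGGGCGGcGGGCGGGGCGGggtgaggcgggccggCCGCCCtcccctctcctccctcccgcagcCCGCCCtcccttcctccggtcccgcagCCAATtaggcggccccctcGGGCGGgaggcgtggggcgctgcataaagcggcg
The CD24 stretch held 1 GC box, and the ALDH1A3 stretch held 6 GC boxes, some overlapping, and 1 CCAAT box. Of 35116 RefSeq promoters, 42.6% held a GC box and 32.01% a CCAAT box in the 250 bases before the start. The core letters bound by RBPJ, TGGGAA, were in 20.8% of promoters and in neither of these stretches. The GC content was 65.6% for CD24 and 82.3% for ALDH1A3.

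The libraries held 10330581 to 18327890 counted reads. The targeted gene followed the labels. JAG1 was at 433, 585 and 522 CPM in Jag1WT and at 116, 205 and 149 CPM in Jag1KO. It was at 534, 657 and 646 CPM in Jag1KO + rescue and at 110, 134 and 147 CPM in Jag1KO + ctrl. After siCtrl it was at 441, 626 and 531 CPM, and after siJag1 at 167, 203 and 131 CPM. The groups of each pair did not overlap, and JAG1 mRNA remained readable in every knockout library. JAG1 was called in Jag1WT over Jag1KO (log2 fold change 1.71, SE 0.22, edgeR adjusted p = 0.0163) and in Jag1KO + rescue over Jag1KO + ctrl (2.22, SE 0.18, edgeR adjusted p = 0.0227). Its difference after siRNA was of like size (1.68, SE 0.19) but did not pass (edgeR adjusted p = 0.111). VIM, a mesenchymal marker of this line, was at 2184 to 4946 CPM, while ESR1 had at most 2 reads and CDH1 at most 17 reads per library. Of the leukocyte markers, PTPRC and CD3E had at most 3 reads each, while CD68, a lysosomal protein, was at 88.9 to 209 CPM. Of the fibroblast markers, DCN had at most 2 reads, LUM at most 4 and PDGFRB 2 to 20, while COL1A1 had 47 to 142 reads. ERBB2 was at 32.5 to 60.0 CPM.

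CD44 (chr11:35138882-35232402, plus strand, hg38) was the most abundant member and differed little between groups. Jag1WT libraries held 441, 418 and 445 CPM, and Jag1KO libraries held 396, 502 and 514 CPM. The knockout libraries lay on both sides of the parental ones. Jag1KO + rescue held 474, 454 and 432 CPM and Jag1KO + ctrl held 463, 520 and 407 CPM, with overlap. The siCtrl libraries held 425, 471 and 463 CPM and the siJag1 libraries held 415, 559 and 426 CPM, where replicate 2 alone stood high. The group means ran from 434 ± 15 (SD, n = 3) in Jag1WT to 471 ± 65 (SD, n = 3) in Jag1KO, and every neighbouring pair of groups in that order overlapped. The fitted log2 differences of CD44 were -0.12 (SE 0.13) for Jag1WT against Jag1KO, -0.04 (SE 0.15) for rescue against empty vector and -0.04 (SE 0.14) for siCtrl against siJag1.

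CD24 (chr6:106969831-106975627, minus strand, hg38) was the member with the widest range. The parental line held 7.76 and 7.37 CPM in replicates 1 and 2 and 23.8 CPM in replicate 3. Jag1KO libraries held 18.3, 24.3 and 34.1 CPM. The third Jag1WT library thus lay within the knockout range. The other 2 Jag1WT libraries lay below that range, a split of 2 against 3 libraries seen only by setting the third aside. Jag1KO + rescue held 14.3, 18.7 and 24.2 CPM. Jag1KO + ctrl held 97.2, 53.7 and 52.9 CPM, above every other library of the study. The siCtrl libraries held 7.57, 6.81 and 7.76 CPM and the siJag1 libraries held 7.48, 10.0 and 6.92 CPM, so both siRNA groups lay near the first 2 parental libraries.

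**Figure D1:**
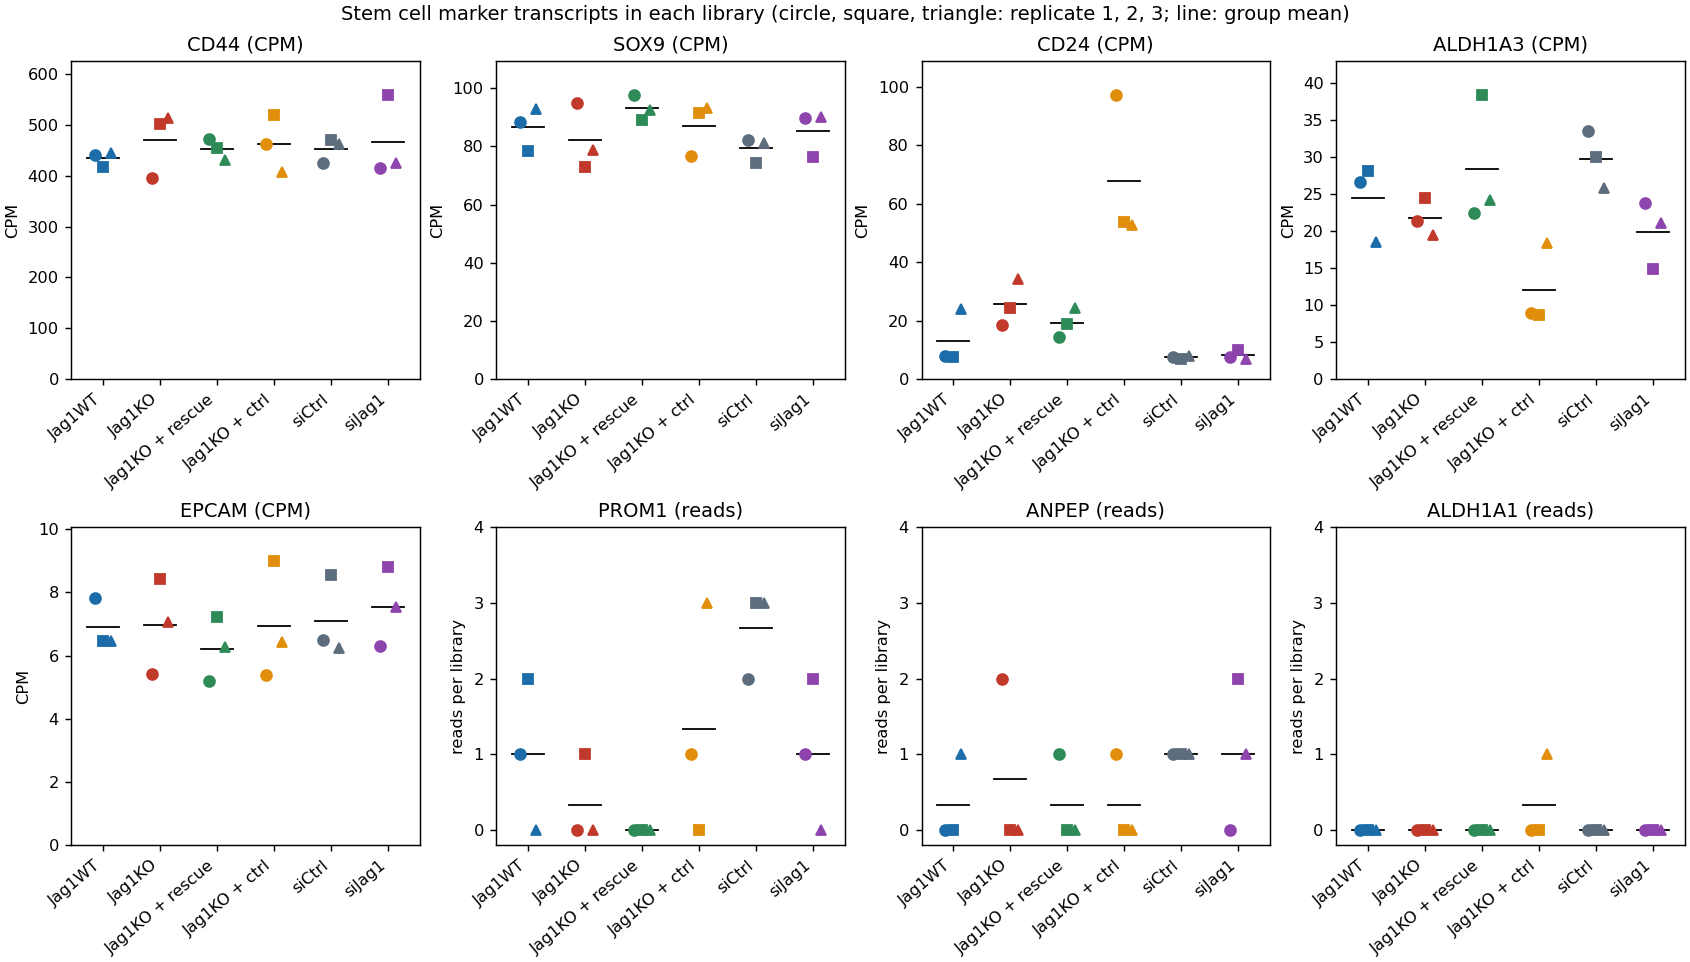
Level of each of the 8 markers in the 18 libraries, as CPM for the 5 expressed genes and as reads for PROM1, ANPEP and ALDH1A1. Symbols are replicates and the line is the group mean; CD24 is highest in the 3 Jag1KO + ctrl libraries (52.9 to 97.2 CPM), where ALDH1A3 is lowest on average, and the groups of CD44 and SOX9 overlap their neighbours in the order of means.

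In the order of group means, CD24 stood at 67.9 ± 25.3 CPM in Jag1KO + ctrl, 25.6 ± 8.0 in Jag1KO, 19.0 ± 4.9 in Jag1KO + rescue, 12.98 ± 9.38 in Jag1WT, 8.14 ± 1.64 in siJag1 and 7.38 ± 0.50 in siCtrl (SD, n = 3 each). Only the highest group lay apart from its neighbour. CD24 was lower in Jag1KO + rescue than in Jag1KO + ctrl by a log2 difference of -1.84 (SE 0.29), with 3 of 3 rescue libraries under all empty-vector libraries. That difference missed the threshold (edgeR adjusted p = 0.104). In this comparison 0.00776% of 12894 tested genes were called, and 32.4% had groups that did not overlap. DESeq2 called CD24 (adjusted p = 6.55e-06), as it did 12.2% of all tested genes. The edgeR fit over all 18 libraries called it too (adjusted p = 0.00696, with 16.7% of genes called), and so did the fit without Jag1KO + ctrl replicate 3 (log2 difference -1.98, adjusted p = 0.00484, with 29% of genes called). Over the 14 settings the CD24 difference lay between -2.04 and -1.497 and its adjusted p between 6.55e-06 and 0.369.

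For Jag1WT against Jag1KO the CD24 difference was -0.97 (SE 0.46, edgeR adjusted p = 0.606), where 0.704% of 12928 genes were called and 13.8% had groups that did not overlap. Leaving out Jag1WT replicate 3 moved it to -1.76 (edgeR adjusted p = 0.142). With the replicate number as a block it was -1.13 and was called (edgeR adjusted p = 0.0342), with 2.19% of genes called; the numbers did not pair these samples in the third replicate. The adjusted p ranged from 0.0342 to 1.00 over the settings. For siCtrl against siJag1 the CD24 difference was -0.14 (SE 0.20, edgeR adjusted p = 0.975), with 0.0156% of 12823 genes called (2 genes, or 4 with the replicate block, whose numbers paired these samples) and 10.5% not overlapping, and it became 0.05 without siJag1 replicate 2.

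The control comparisons placed the empty vector apart for CD24. Jag1KO + ctrl exceeded Jag1KO by 1.40 on the log2 scale (SE 0.31), with no overlap of the libraries, but did not pass in edgeR (adjusted p = 0.760). Here edgeR called 0% of 13004 genes, 756 had an unadjusted p under 0.05, and 10.1% had groups that did not overlap. DESeq2 called CD24 (adjusted p = 0.0342, within a range of 0.0342 to 1.00 over the settings), and it called 0.1% of genes. Jag1KO + rescue against Jag1KO, added after the data were seen, gave -0.44 (SE 0.28, edgeR adjusted p = 0.430), with 0.0312% of genes called and 21.6% not overlapping. Over the 14 settings that CD24 difference lay between -0.65 and -0.18 and its adjusted p between 0.0464 and 0.868. For siCtrl against Jag1WT the value was -0.83 (SE 0.42, edgeR adjusted p = 1.00) with 0% of 12847 genes called by edgeR, 0 by DESeq2 and 177 at an unadjusted p under 0.05 (1 gene was called with the replicate block), and it was -0.04 without Jag1WT replicate 3.

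The CD24 effect after siRNA and after rescue differed by 1.72 on the log2 scale (SE 0.38, unadjusted p = 0.000683 in the edgeR fit across all genes). This did not pass after adjustment (edgeR adjusted p = 0.0770), in a fit that called 12 of 12805 genes. Without Jag1KO + ctrl replicate 3 it was 1.87 and passed (edgeR adjusted p = 0.0148), where 1786 of 12805 genes were called. With the replicate block it was 1.69 and passed (edgeR adjusted p = 0.0475), where 473 were called. The replicate numbers were not taken to pair rescue with empty vector. The difference between the Jag1WT against Jag1KO effect and the rescue effect was 0.89 (SE 0.61, edgeR adjusted p = 0.401), and 0.077 without Jag1WT replicate 3 (edgeR adjusted p = 0.947). CD24 was counted from uniquely mapped reads, and the gene has near-identical processed copies elsewhere in the genome, so its absolute level is uncertain.

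**Figure D2:**
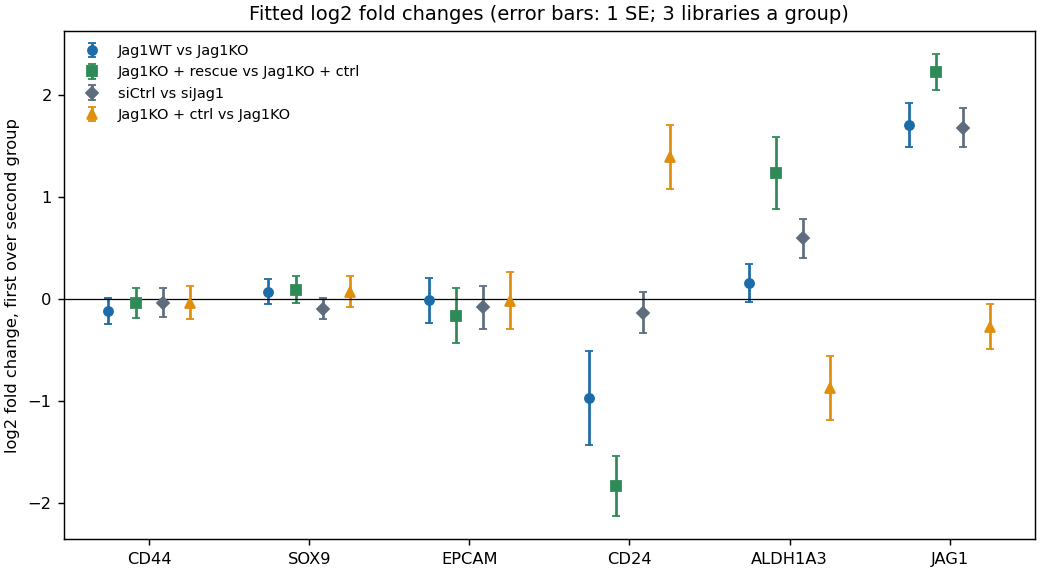
Log2 fold changes of the 5 tested markers and JAG1 in 4 comparisons, first over second group, with 1 SE from edgeR and 3 libraries per group. CD44, SOX9 and EPCAM lie near 0 (farthest, EPCAM at -0.16), while CD24 is at -1.84 and ALDH1A3 at 1.24 in Jag1KO + rescue against Jag1KO + ctrl.

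The CD44 to CD24 ratio, computed per length from the reads of each library, describes the axis by which breast cancer stem cells are usually sorted, here at the level of mRNA. It was 37.1, 37.1 and 12.2 in Jag1WT and 14.1, 13.5 and 9.86 in Jag1KO. It was 21.6, 15.9 and 11.7 in Jag1KO + rescue and 3.11, 6.34 and 5.03 in Jag1KO + ctrl. After siCtrl it was 36.7, 45.2 and 39.0, and after siJag1 36.3, 36.5 and 40.2. Counted this way, the ratio was above 1 in all 18 libraries and lowest with the empty vector; its absolute size carries the uncertainty of the CD24 level. The ratio followed CD24, since CD44 moved little.

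The mean log2 ratio of rescue exceeded that of empty vector by 1.78 (SE 0.40), a 3.44-fold difference with no overlap of the libraries. A two-sided exact permutation test gave p = 0.1, the smallest that 3 against 3 allows, and 0.3 after adjustment over the 3 comparisons. For Jag1WT against Jag1KO the difference was 1.05 (SE 0.56, exact permutation p = 0.3, adjusted 0.45), and it rested on where Jag1WT replicate 3 lay, being 1.59 without that library. For siCtrl against siJag1 it was 0.09 (SE 0.10, exact permutation p = 0.5, adjusted 0.5).

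**Figure D3:**
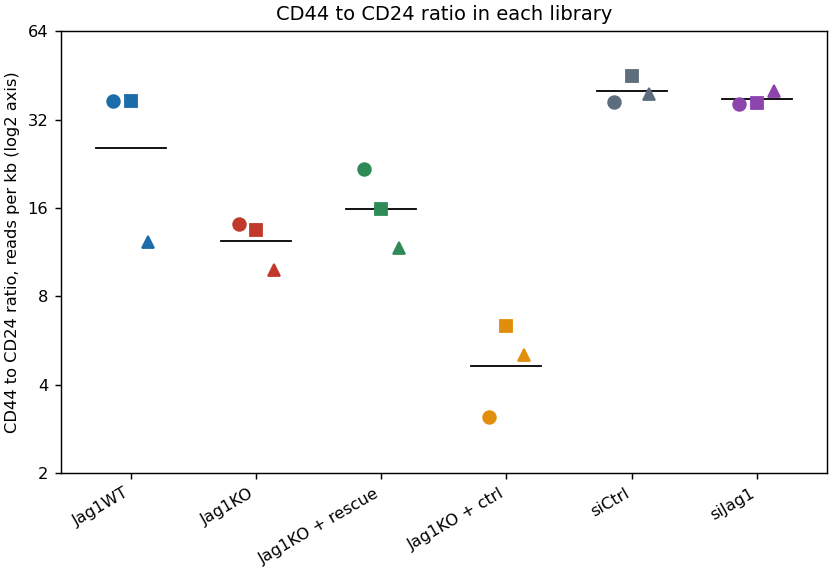
CD44 to CD24 ratio per length in each library on a log2 axis, with symbols for replicates and a line at the geometric mean of each group. The siRNA groups lie between 36.3 and 45.2, the knockout and rescue groups between 9.86 and 21.6, the empty-vector group between 3.11 and 6.34, and Jag1WT replicate 3 (12.2) lies away from the other 2 parental libraries.

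ALDH1A3 (chr15:100877714-100916626, plus strand, hg38) was the only aldehyde dehydrogenase of the member set with reads in every library. Jag1WT held 26.6, 28.1 and 18.5 CPM and Jag1KO held 21.3, 24.5 and 19.5 CPM, which overlapped. Jag1KO + rescue held 22.4, 38.3 and 24.2 CPM, and Jag1KO + ctrl held 8.87, 8.63 and 18.4 CPM, all under the lowest rescue library, in a comparison where 32.4% of all genes did not overlap. The siCtrl libraries held 33.5, 30.01 and 25.8 CPM and the siJag1 libraries held 23.7, 14.9 and 21.1 CPM, with every siJag1 library under every siCtrl library, as 10.5% of all genes were apart in either direction. In each pair the group with more JAG1 had the higher ALDH1A3 mean. An unchanged direction was not particular to ALDH1A3, as the means of CD44, CD24 and EPCAM were lower with more JAG1 in each pair.

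The means of ALDH1A3 ran from 29.8 ± 3.8 CPM in siCtrl through 28.3 ± 8.7 in Jag1KO + rescue, 24.4 ± 5.2 in Jag1WT, 21.8 ± 2.5 in Jag1KO and 19.9 ± 4.5 in siJag1 to 11.97 ± 5.58 in Jag1KO + ctrl (SD, n = 3 each). All neighbours in this order overlapped. The log2 difference between rescue and empty vector was 1.24 (SE 0.36, edgeR adjusted p = 0.107). It was called by DESeq2 (adjusted p = 0.0143), by the edgeR fit over all 18 libraries (adjusted p = 0.00957) and without Jag1KO + ctrl replicate 3 (1.69, adjusted p = 0.00655), settings that called 12.2%, 16.7% and 29% of all tested genes, within a range of 0.00655 to 0.369 over the settings. Between siCtrl and siJag1 it was 0.59 (SE 0.19, unadjusted p = 0.0152, edgeR adjusted p = 0.969). Over the 14 settings, the replicate block among them, the siRNA difference lay between 0.43 and 0.73, and its adjusted p was at least 0.463. Between Jag1WT and Jag1KO the ALDH1A3 difference was 0.16 (SE 0.19, edgeR adjusted p = 0.854). The empty vector lay under Jag1KO by -0.88 (SE 0.31, edgeR adjusted p = 0.760), and without Jag1KO + ctrl replicate 3 by -1.32 (edgeR adjusted p = 0.0348, with 2.31% of genes called). Jag1KO + rescue against Jag1KO gave 0.36 (SE 0.23, edgeR adjusted p = 0.442). The Jag1WT against Jag1KO effect minus the rescue effect was -1.06 (SE 0.43), which did not pass (edgeR adjusted p = 0.175), in a fit that called 70 of 12850 genes. Without Jag1KO + ctrl replicate 3 it was -1.501 and passed (edgeR adjusted p = 0.0130), where 2372 of 12850 genes were called.

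SOX9 (chr17:72121020-72126416, plus strand, hg38) was steady, at 72.8 to 97.7 CPM over the 18 libraries. Its group means ran from 79.3 ± 4.3 CPM in siCtrl to 93.1 ± 4.3 in Jag1KO + rescue (SD, n = 3 each), with all neighbours overlapping. The log2 differences were 0.07 (SE 0.13) for Jag1WT against Jag1KO, 0.09 (SE 0.13) for rescue against empty vector and -0.10 (SE 0.10) for siCtrl against siJag1. EPCAM (chr2:47345158-47387601, plus strand, hg38) was low, with 74 to 163 reads per library. Its means lay between 6.22 ± 1.02 CPM in Jag1KO + rescue and 7.55 ± 1.26 in siJag1 (SD, n = 3 each), and its log2 differences were -0.01 (SE 0.22), -0.16 (SE 0.27) and -0.08 (SE 0.21) in the same order. Neither gene passed the test in any setting.

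The 3 remaining members were not detectable as expressed at this depth. PROM1 (chr4:15963076-16084378, minus strand, hg38) had 19 reads in all, 0 to 3 per library, of which 8 fell in the siCtrl group and 0 in Jag1KO + rescue. ANPEP (chr15:89784895-89815401, minus strand, hg38) had 11 reads in all, 0 to 2 per library. ALDH1A1 (chr9:72900671-73080442, minus strand, hg38) had 1 read in all, in Jag1KO + ctrl replicate 3. A count of 0 allowed a level of up to 0.162 to 0.287 CPM, depending on the library, at 3 reads and for counting error only. These 3 genes were under the filter on low values in every comparison, so 5 of the 8 members were tested.

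Genes whose levels over the 18 libraries were most like a member's were taken as a description from 12803 genes above 1 CPM in at least 9 libraries. For CD24 they were VSIG1, a junctional adhesion protein (Pearson r = 0.96 of log2(CPM + 1)), CHRNA1, a subunit of the muscle acetylcholine receptor (0.94), and RGCC, a regulator of cell cycle proteins (0.92). VSIG1 was highest in Jag1KO + ctrl (8.96 ± 2.69 CPM, SD, n = 3) and at 1.68 ± 0.55 CPM in siCtrl. For ALDH1A3 they were ADORA2B, an adenosine receptor (0.94), GOLGA1, a Golgi coiled-coil protein (0.93), and ARHGEF2, an activator of RhoA that binds microtubules (0.92). ADORA2B was lowest in Jag1KO + ctrl (82.3 ± 22.9 CPM) and highest in siCtrl (154 ± 7). For CD44 they were TIPIN, a replication fork protein (0.90), DNM1L, which divides mitochondria (0.90), and XRCC5, a DNA repair protein (0.90). For SOX9 they were QPCTL (0.86), SEC61G (0.84) and PSORS1C1 (0.83), and for EPCAM, BCKDHB (0.82), FAHD2B (0.81) and HLA-DMB (0.81). The points share 6 groups and the libraries' growth state.

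That growth state differed between libraries and moved with some members. The mean log2(CPM + 1) of 15 proliferation genes was 4.46 to 5.39 in Jag1WT, 4.53 to 6.41 in Jag1KO, 4.52 to 5.54 in Jag1KO + rescue, 4.83 to 7.03 in Jag1KO + ctrl, 4.63 to 5.68 in siCtrl and 4.73 to 6.88 in siJag1. All 15 were lower in the group with more JAG1 in the 3 pairs, with median log2 differences of -1.25, -1.53 and -0.71 against medians of -0.0088, -0.0024 and -0.0073 over all tested genes; MCM2 in Jag1WT against Jag1KO was the only member of the list called (-0.78, SE 0.13, edgeR adjusted p = 0.0445). All 4 libraries with CD44 above 500 CPM were among the 5 with a proliferation level above 6. The 3 libraries with the lowest ALDH1A3 were the 3 with the highest proliferation level, namely Jag1KO + ctrl replicates 1 and 2 (6.54 and 7.03) and siJag1 replicate 2 (6.88). Within groups the picture for ALDH1A3 was mixed. It was lowest in the library with the highest proliferation level in 3 of 6 groups, and highest in that library in 2. By the same measure CD44 was lowest in 1 group and highest in 4, EPCAM lowest in 0 and highest in 4, and CD24 lowest in 2 and highest in 2. SOX9 was lowest in that library in 4 of 6 groups, and highest in the library with the lowest proliferation level in 5. For CD24, the Jag1KO libraries held 18.3, 24.3 and 34.1 CPM at proliferation levels of 4.53, 6.15 and 6.41, and the Jag1KO + ctrl libraries held 97.2, 53.7 and 52.9 CPM at 6.54, 7.03 and 4.83, while siJag1 replicate 2 held 10.0 CPM at 6.88. The part of growth state in the members' differences was not tested.

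**Figure D4:**
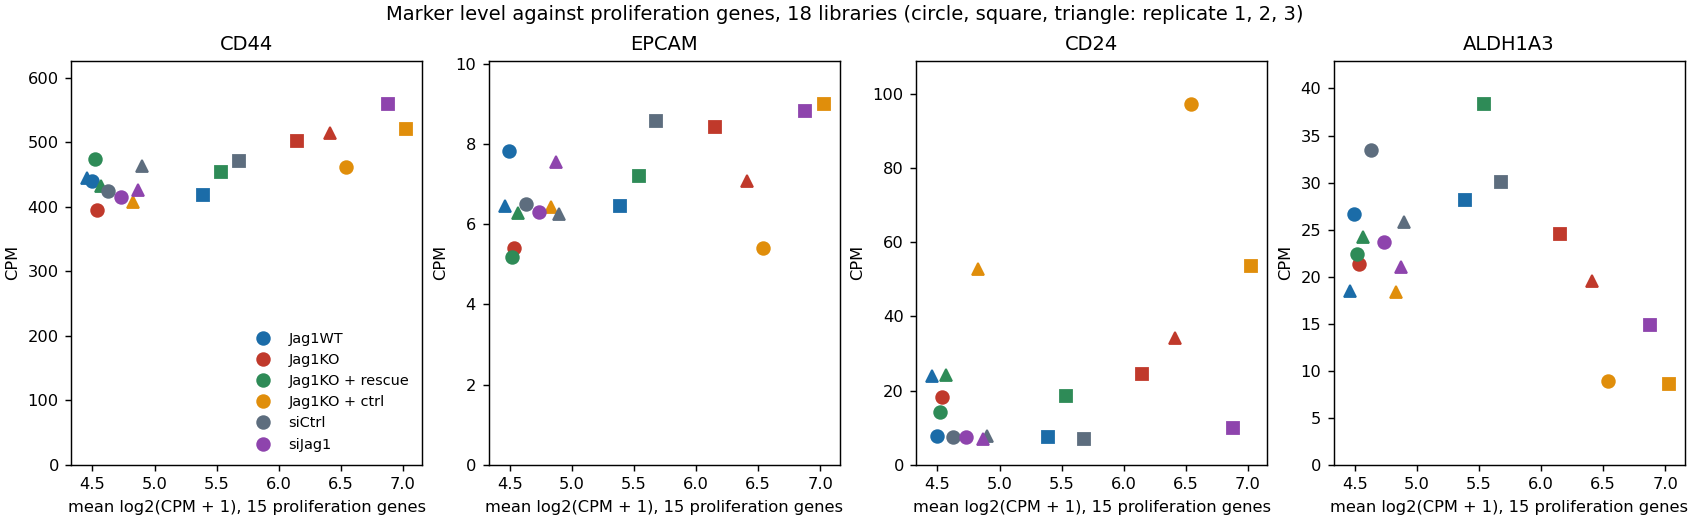
CPM of CD44, EPCAM, CD24 and ALDH1A3 (y axes) against the mean log2(CPM + 1) of 15 proliferation genes (x axes) in the 18 libraries, coloured by group, with symbols for replicates. CD44 is above 500 CPM only at proliferation levels above 6, the 3 lowest ALDH1A3 libraries are at 6.54 to 7.03, and the Jag1KO + ctrl libraries hold the highest CD24, at levels from 4.83 to 7.03.

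Related gene lists were described by counts and medians. Of 16 other surface markers and transporters of cancer stem cells, 12 were tested, with median log2 differences of -0.11 for Jag1WT against Jag1KO, -0.39 for rescue against empty vector and -0.10 for siCtrl against siJag1. In the last 2, 0 of them were called, where 0.00776% and 0.0156% of all tested genes were. In Jag1WT against Jag1KO 2 of the 12 were called (0.704% over all tested genes), both higher in Jag1WT: CXCR4, a chemokine receptor (1.55, SE 0.26, edgeR adjusted p = 0.0461), and ITGB3, an integrin subunit (1.22, SE 0.20, edgeR adjusted p = 0.0452). In that comparison 2 of the list were higher and 1 was lower without overlap (13.8% over all genes in either direction). CXCR4 was at 4.36, 3.38 and 4.30 CPM in Jag1WT and at 1.30, 1.62 and 1.15 CPM in Jag1KO. ITGB3 was at 11.6, 13.2 and 15.8 CPM in Jag1WT and at 5.02, 6.57 and 5.83 CPM in Jag1KO. With JAG1 restored the means of both were not above those with the empty vector: Jag1KO + rescue held 1.02, 0.78 and 1.00 CPM of CXCR4 and 4.02, 9.97 and 7.44 CPM of ITGB3, against 2.58, 3.54 and 0.96 CPM and 10.97, 8.45 and 7.28 CPM in Jag1KO + ctrl. After siRNA, ITGB3 held 12.4, 14.4 and 11.7 CPM in siCtrl and 7.94, 6.71 and 8.39 CPM in siJag1, without overlap (10.5% of all genes). CXCR4 held 3.89, 4.11 and 2.89 CPM in siCtrl and 1.81, 3.52 and 2.17 CPM in siJag1, with overlap. The Jag1WT against Jag1KO effect minus the rescue effect was 2.91 for CXCR4 (SE 0.56, edgeR adjusted p = 0.0486), where 70 of 12850 genes were called. It did not pass with the replicate block (edgeR adjusted p = 0.0543) or in limma on log2(CPM + 1) (adjusted p = 0.0509). With 1 library left out, it passed only without Jag1KO + ctrl replicate 3 (edgeR adjusted p = 0.000762), where 2372 genes were called. For ITGB3 the difference was 1.56 and did not pass (edgeR adjusted p = 0.0812), but it passed without that library (edgeR adjusted p = 0.0193). The Jag1WT against Jag1KO calls of CXCR4, ITGB3 and MCM2 were lost when any library other than Jag1KO replicate 1 was left out (adjusted p 0.0755 to 0.235 over the 3 genes), as was that of JAG1 without any Jag1WT library or without Jag1KO replicate 3 (0.0634 to 0.130). The JAG1 call in rescue against empty vector was lost when any library other than Jag1KO + ctrl replicate 3 was left out (0.0664 to 0.245).

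None of the 10 tested stem cell transcription factors was called in Jag1WT against Jag1KO or in rescue against empty vector, nor any of the 9 tested after siRNA. The medians of their log2 differences were -0.04, 0.13 and 0.03. Of the other aldehyde dehydrogenases 14, 13 and 13 were tested and 0 called, with medians of -0.03, -0.50 and -0.09. In rescue against empty vector 4 of the 13 had groups that did not overlap, all lower in rescue, a share close to the 32.4% of all tested genes. The retinoic acid pathway, which acts after ALDH1A3, had 12 tested genes in each pair, 0 called, and medians of 0.18, -0.10 and 0.08. Of the 14 tested genes of hyaluronan and CD44 partners 0 were called in each pair, with medians of -0.04, 0.04 and -0.09. Of a list of other M1 aminopeptidases and surface peptidases, set beside ANPEP, 8 were tested and 0 called, with medians of 0.25, -0.15 and 0.03. In Jag1WT against Jag1KO the tested genes were RNPEPL1, NPEPPS, ERAP1, AOPEP, LNPEP, LTA4H, ERAP2 and RNPEP.

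Epithelial genes that go with EPCAM and CD24 did not move in 1 direction. In Jag1WT against Jag1KO 8 of 14 tested genes were higher in Jag1WT, 3 of the 14 without overlap (13.8% over all genes), with a median of 0.05. After siRNA 12 of 14 were higher in siCtrl, 5 of them without overlap (10.5% over all genes), with a median of 0.23. In rescue against empty vector 6 of 13 were higher in rescue, none of these without overlap, and 6 of the other 7 were lower without overlap (32.4% over all genes in either direction), with a median of -0.12. In these comparisons 0 of the list were called, where 0.704%, 0.0156% and 0.00776% of all tested genes were, in the order given. The following were chosen after their values were seen. The keratin KRT8 was at a mean of 37.0 CPM in rescue and 108 CPM in empty vector (log2 difference -1.55, SE 0.32), KRT19 at 119 and 352 CPM (-1.57, SE 0.32), and MUC1, a membrane mucin, at 1.66 and 10.3 CPM (-2.63, SE 0.52), each with an edgeR adjusted p of 0.104. ELF3, an epithelial transcription factor, was at 8.92 CPM in siCtrl and 3.03 CPM in siJag1 (1.57, SE 0.29, edgeR adjusted p = 0.513), and at 9.42 CPM in Jag1WT and 2.70 CPM in Jag1KO (1.79, SE 0.41, edgeR adjusted p = 0.150). Between rescue and empty vector CD24 was higher in the same group as KRT8, KRT19 and MUC1, and none of the 4 passed the call rule in the main edgeR fit. In Jag1WT against Jag1KO, where CD24 was lower in Jag1WT, the log2 differences were -0.05 (SE 0.23) for KRT8 and 0.33 (SE 0.19) for KRT19. For MUC1 it was -0.23 (SE 0.35), and none of these was called.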

How the data were processed

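RNA was sequenced from 18 spheroid cultures with a stranded poly(A) kit. Per the paper's methods and the submitters' processing notes, the authors mapped reads to hg38, counted uniquely mapped reads per gene with featureCounts and scaled them with edgeR 3.28.0 (R 3.6.1). The deposited counts are whole reads per gene. The deposited CPM are the authors' TMM-scaled read counts by library size, and the deposited RPKM were used only for transcript length; 3 RPKM columns whose names match no sample were not used. Rows without a symbol (292, at most 0.0442% of a library's reads) kept their Entrez ID. Members and gene lists were chosen with earlier results of these data known.

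Counts were tested with edgeR 4.0.16 (quasi-likelihood, TMM) in R 4.3.3 on the genes for which 3 or more of the 6 libraries exceeded 1 CPM. This differs from the authors' test on log2 values. A gene was called at an adjusted p under 0.05 and a fold above 1.5. Effects of 2 comparisons were compared as an interaction over 12 libraries (6 or more above 1 CPM). The code was tested on simulated data. Named genes were the members, JAG1, the 3 genes most like each expressed member by Pearson r, and at most 4 called genes per list; KRT8, KRT19, MUC1 and ELF3 were named outside this rule, after their values were seen. Alternatives were limma 3.58.1 on log2(CPM + 1) or log2(CPM + 0.1), DESeq2 1.42.0, RLE factors, no filter, a replicate block, a fit on all 18 libraries and leaving out each library. Replicate numbers were taken to pair siCtrl with siJag1 (correlations of deviations 0.54, 0.52 and 0.26) and siCtrl with Jag1WT (0.59, 0.71 and 0.21). The main fits and the permutation test of the ratio did not use this pairing. It entered only in the replicate block and in the ratio compared in pairs by replicate number. The other pairs each held a correlation below 0. Of these, Jag1WT with Jag1KO also held 0.63 and 0.67, and rescue with Jag1KO 0.70 and 0.70, so pairing in part remains possible there. Coordinates are from GENCODE release 44, on hg38.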

Additional observations from a re-analysis of the deposited data

How the results depend on the processing

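The direction of each CD24 and ALDH1A3 difference in the report held under the alternatives run, except CD24 in siCtrl against siJag1 without siJag1 replicate 2. Calls depended on the setting. CD24 was called in rescue against empty vector by DESeq2 (-1.83) and the fit on all 18 libraries (-1.86), in empty vector against Jag1KO by DESeq2 (1.40), and in Jag1WT against Jag1KO with the replicate block (-1.13). ALDH1A3 was called in rescue against empty vector by DESeq2 (1.24) and the fit on all 18 libraries (1.22). The difference of the CD24 effect between siRNA and rescue passed with the block (1.69, adjusted p = 0.0475), where 473 of 12805 genes were called. EPCAM in Jag1WT against Jag1KO changed sign in limma (0.0036 and 0.0061 at pseudocounts 1 and 0.1) and with the block (0.0051). So did 2 differences of effects in limma: SOX9 between Jag1WT against Jag1KO and rescue (-0.020), and CD44 between siRNA and rescue (-0.0055). Of the genes named from lists, CXCR4 and MCM2 were not called in the fit on all 18 libraries. The causes were not tested.

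Counts of called genes moved most. Jag1WT against Jag1KO had 91 (235 DESeq2, 162 no filter, 283 replicate block, 148 all libraries). Rescue against empty vector had 1 (2 in each limma fit, 1572 DESeq2, 2 no filter, 3 block, 2156 all libraries). The siRNA pair had 2 (0 in each limma fit, 25 DESeq2, 8 no filter, 4 block, 7 all libraries). Empty vector against Jag1KO had 0 (13 DESeq2, 1 all libraries), siCtrl against Jag1WT 0 (1 block), and rescue against Jag1KO 4 (238 DESeq2, 16 no filter, 1091 block, 97 all libraries). Leaving out 1 library gave 7 to 956, 0 to 3734, 0 to 4, 0 to 301, 0 to 0 and 0 to 8 calls in the same order; the highest counts came without Jag1KO replicate 1 (956) and without Jag1KO + ctrl replicate 3 (3734 and 301). For the pairs not taken as paired, the correlations differed in sign between replicates, so what the block shares is uncertain. The deviations of same-numbered libraries correlated at 0.63, 0.67 and -0.01 for Jag1WT and Jag1KO, -0.21, 0.34 and 0.24 for rescue and empty vector, -0.36, 0.28 and -0.61 for empty vector and Jag1KO, and 0.70, 0.70 and -0.14 for rescue and Jag1KO.

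Leaving out 1 library at a time gave these ranges of log2 differences where a call or sign changed. In Jag1WT against Jag1KO they were -0.00921 to 0.18 for SOX9, -0.18 to 0.15 for EPCAM. In rescue against empty vector they were -0.12 to 0.0587 for CD44, 0.94 to 1.69 for ALDH1A3, -0.00273 to 0.14 for SOX9, -0.32 to 0.069 for EPCAM, -2.04 to -1.497 for CD24. In siCtrl against siJag1 they were -0.12 to 0.12 for CD44, -0.23 to 0.0576 for EPCAM, -0.24 to 0.0486 for CD24. In empty vector against Jag1KO they were -0.15 to 0.0527 for CD44, -1.32 to -0.69 for ALDH1A3, -0.00249 to 0.19 for SOX9, -0.25 to 0.15 for EPCAM. In siCtrl against Jag1WT they were -0.13 to 0.13 for EPCAM, -0.0902 to 0.16 for JAG1. The differences of effects had these ranges. For Jag1WT against Jag1KO minus rescue against empty vector they were -0.17 to 0.0323 for CD44, -1.501 to -0.77 for ALDH1A3, -0.0751 to 0.12 for SOX9, -0.0637 to 0.34 for EPCAM. For Jag1WT against Jag1KO minus siCtrl against siJag1 they were -0.24 to 0.00696 for CD44, -0.0846 to 0.23 for EPCAM. For siCtrl against siJag1 minus rescue against empty vector they were -0.0805 to 0.18 for CD44, -0.13 to 0.25 for EPCAM, 1.37 to 1.92 for CD24. The log2 CD44 to CD24 ratio kept its direction in all alternatives; with signed pairs by replicate number its exact p was 0.25, 0.25 and 0.75 for Jag1WT against Jag1KO, rescue and siRNA, where 0.25 is the smallest 3 pairs allow, with differences of 1.05, 1.78 and 0.09. With 3 libraries a group and 74 to 163 reads per library, small changes in EPCAM are not detectable, and PROM1, ANPEP and ALDH1A1 cannot be compared at these depths.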
